A study of Mus musculus with 6 samples.

Results

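Complement is described here across liver metastases grown from 4T1 cells with and without silencing of Zdhhc17, through 30 listed genes for its components, regulators and receptors. Genes were taken by symbol from the deposited count table, and 29 of the 30 were found among its 24167 genes. Cfd, which encodes factor D, was not analysed here. 4T1 is a mouse triple-negative breast cancer line, and the product of Zdhhc17 is a palmitoyltransferase, which adds palmitate to other proteins. A pLKO.1 lentivirus gave the cells either shSCR, a scrambled hairpin, or shZdhhc17, the silencing hairpin. Cells were selected with puromycin, and 500000 of them were injected hydrodynamically through the tail vein of female BALB/c mice aged 6 to 8 weeks. On day 10 metastases were cut out of the livers under a microscope and 3 libraries of polyadenylated RNA were sequenced for each group. The injected 4T1 cells of both groups carried a hairpin vector, whereas the host's hepatocytes, macrophages and other cells carried no hairpin. The labels do not say that the 3 libraries of a group come from separate mice, so the p-values reflect spread among these samples only, and that spread may be technical.

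Complement is a cascade of plasma proteins that tags targets for uptake, releases inflammatory peptides and inserts pores into membranes. Antibody-bound C1q with its proteases C1r and C1s starts the classical pathway, mannose-binding lectins with the MASP proteases start the lectin pathway, and factor B and properdin drive the alternative pathway; these meet at C3, after which C5 to C9 build the membrane attack complex. In the liver, hepatocytes make most of the circulating factors, macrophages make C1q, and cells carry receptors and surface regulators of their own, so the genes were read in those classes.

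Promoter sequence is shown for 4 of the genes on which the results below turn: C3, the central component, and C8a, C8b and C8g, which encode the alpha, beta and gamma chains of the same protein, C8. Each is the 250 bases before the gene's start in RefSeq on GRCm38.p6, printed 5′ to 3′ on the gene's strand. Capitals mark matches, on either strand, to the C/EBP motif TTNNGNAA and to the HNF1 core GTTAAT. The windows are chr17:57228137-57228386 on the minus strand for C3, chr4:104876399-104876648 on the minus strand for C8a, chr4:104766067-104766316 on the plus strand for C8b and chr2:25501720-25501969 on the minus strand for C8g.
C3: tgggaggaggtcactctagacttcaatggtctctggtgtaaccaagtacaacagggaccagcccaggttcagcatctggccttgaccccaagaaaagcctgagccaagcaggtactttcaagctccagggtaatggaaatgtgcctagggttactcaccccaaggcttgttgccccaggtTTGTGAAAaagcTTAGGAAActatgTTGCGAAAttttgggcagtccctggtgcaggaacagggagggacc
C8a: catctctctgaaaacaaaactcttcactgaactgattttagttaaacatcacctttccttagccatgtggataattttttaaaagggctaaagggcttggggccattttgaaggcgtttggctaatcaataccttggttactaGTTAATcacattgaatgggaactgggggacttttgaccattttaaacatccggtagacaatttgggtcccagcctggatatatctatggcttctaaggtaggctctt
C8b: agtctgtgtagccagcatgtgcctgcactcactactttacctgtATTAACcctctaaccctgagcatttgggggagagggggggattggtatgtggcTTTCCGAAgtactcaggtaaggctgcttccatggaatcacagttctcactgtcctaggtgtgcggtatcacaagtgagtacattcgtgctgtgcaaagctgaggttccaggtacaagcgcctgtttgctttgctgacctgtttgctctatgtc
C8g: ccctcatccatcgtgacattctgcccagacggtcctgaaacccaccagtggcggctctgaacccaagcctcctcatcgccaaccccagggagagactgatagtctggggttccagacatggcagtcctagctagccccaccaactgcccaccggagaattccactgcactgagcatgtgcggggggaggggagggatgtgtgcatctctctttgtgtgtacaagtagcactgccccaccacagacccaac

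The C3 window held 3 C/EBP matches, at bases 70 to 63, 58 to 51 and 45 to 38 before the start. An HNF1 core lay in the C8a window at bases 107 to 102, and the C8b window had both an HNF1 core at 206 to 201 and a C/EBP match at 153 to 146. No match to either motif was found in the C8g window, which says only that these letters are absent from it. Of the 29 complement genes, 21 had a promoter in the RefSeq table, and 5 motifs were looked for in them on both strands. The HNF1 core was in 7 of these 21 (C1ra, C4bp, C8a, C8b, Cfp, Hc and Vtn), against 6.54% of 27025 mouse promoters of the same length. The C/EBP motif was in 9 of the 21, against 37.0% of all promoters, and the NF-kB motif (GGG and CC with any 5 bases between) in 7, against 45.4%. The GAS motif TTCNNNGAA was in 2, against 7.14%, and the ISRE motif (GAAA and GAAA with any 2 bases between) in 1, against 3.05%. The C3 window held 4 NF-kB matches and the C8a window a GAS match, which are not in capitals. Of these 4, the matches at bases 197 to 188 and 196 to 187 overlap each other. Matches to different motifs did not overlap in these 21 promoters. Such matches describe letters and are not evidence of binding.

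Totals ran from 15832837 to 19186615 counts per library. Zdhhc17 itself stood at 32.4 to 34.2 CPM (counts scaled to the library's normalised size) in shSCR and 25.9 to 27.8 in shZdhhc17, a log2 fold change of -0.33 ± 0.11 (SE) with an edgeR adjusted p of 0.383. Hepatocyte marker RNA varied between libraries, with overlap between the groups: 14 markers, led by Alb, summed to 75071, 58515 and 33712 CPM in shSCR (replicates 1, 2 and 3, the order used throughout) and 69601, 93296 and 86681 CPM in shZdhhc17. shSCR replicate 3 was thus lowest in hepatocyte RNA, and in the silenced group replicate 1 lay below the other two. In bulk tissue, fewer cells of a type and less RNA per cell cannot be told apart. Carcinoma keratins and Epcam, led by Krt18, summed to 1796 to 2885 CPM in shSCR and 1493 to 2837 in shZdhhc17. Of these 6 genes, 5 had a log2 fold change below 0 and 1 above, with a median of -0.48. In edgeR 0 of them had an adjusted p under 0.05. Hepatocytes and bile duct cells express some of these genes too, so the sum does not measure the tumour share. Adipoq, an adipocyte marker, was at 0 in 4 of the 6 libraries.

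The 29 complement genes all passed the filter on low counts, and together they took 1.58%, 1.66% and 1.06% of the counts in shSCR and 1.63%, 2.69% and 2.602% in shZdhhc17. None of the 29 differed at an adjusted p under 0.05 in edgeR's quasi-likelihood test, in which 0 of all 15567 tested genes did (0%). Fitted log2 fold changes of shZdhhc17 minus shSCR were above 0 for 22 of the 29 and below 0 for 7, against 50.3% of all genes above 0. Their median was 0.55, against 0.0017 over all genes. At an unadjusted p under 0.05 stood 4 of them, Cd55, Cfb, C3 and Cfi, all higher, and none lower. Over all genes that share was 4.72% higher and 6.71% lower. C3 and Cd55 were the 2 genes whose groups did not overlap, both higher in shZdhhc17, close to the 7.48% of all genes with that pattern; 0 were lower without overlap, against 9.62% of all genes. The unadjusted count depended on single libraries: leaving out shSCR replicate 1 gave 9 genes (18.2% of all genes), leaving out replicate 2 gave 3 (8.16%) and leaving out replicate 3 gave 2 (7.63%). In the silenced group the count was 12 when replicate 1 was left out (14% of all genes), 1 when replicate 2 was (6.36%) and 1 when replicate 3 was (5.9%). The count was 17 with both the control replicate 3 and the silenced replicate 1 left out, beside 14.3% of all genes. That setting was chosen after seeing the data, and under it still none of the 29 passed after adjustment. DESeq2 on the same counts had 11 of the 29 at an unadjusted p under 0.05, beside 11.9% of all genes, and 0 after adjustment, where it called 1.35% of all genes. In the authors' deposited table, none of the 29 had a q-value under 0.05 and the smallest was 0.0550, for Cd55.

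**Figure D1:**
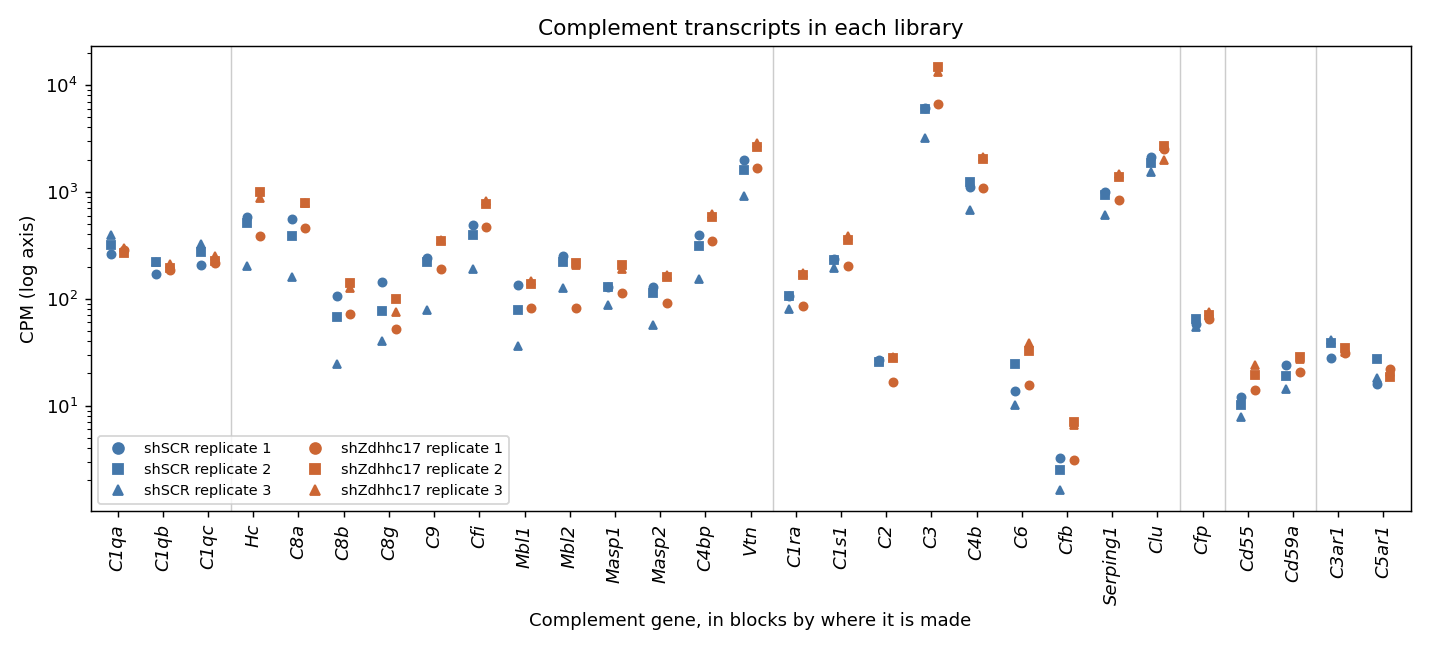
CPM of each complement gene in each library on a log axis, with genes in blocks by where they are made; colours mark the groups and symbols the replicates. Levels spanned from 1.62 CPM for Cfb to 14692 CPM for C3, and the points of shSCR replicate 3 lay lowest for most liver-made genes, while the C1q genes had their highest points there.

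C3 (ENSMUSG00000024164.16), the component on which the 3 pathways meet and the source of the opsonin C3b, was the most abundant of the 29 per length, at a median of 1229 CPM per kilobase of exon. It stood at 6051, 5977 and 3222 CPM in shSCR and at 6586, 14692 and 13118 in shZdhhc17. Each silenced library was above each control, narrowly so for replicate 1. Means were 5083 ± 1612 and 11466 ± 4298 (SD, n = 3 each). The log2 fold change was 1.17 ± 0.43, which edgeR did not call (adjusted p 0.401). C3 alone made up 36.5%, 38.6% and 33.9% of the complement counts in shSCR and 40.6%, 50.2% and 47.6% in shZdhhc17.

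The alternative pathway partners of C3 were measured at very different levels. Cfb (ENSMUSG00000090231.11), which encodes factor B, the protease of the alternative C3 convertase, was the least abundant of the 29 per length (1.11 CPM per kilobase). It stood at 3.22, 2.51 and 1.62 CPM in shSCR and 3.08, 6.99 and 6.53 in shZdhhc17. The silenced replicate 1 lay inside the control range and the other 2 above it. The log2 fold change was 1.17 ± 0.39 (edgeR adjusted p 0.378), the same size as that of C3, and the ratio of C3 to Cfb per kilobase was 1145 ± 144 in shSCR and 1144 ± 36.3 in shZdhhc17 (SD, n = 3 each). In the GENCODE M21 annotation, 79.5% of the exon bases of Cfb are shared with a readthrough gene model on the same strand, so the level of Cfb is uncertain. Cfp encodes properdin, the myeloid-made stabiliser of that convertase. Its 3 control libraries stood at 58.0, 64.8 and 54.6 CPM and the silenced ones at 64.6, 70.2 and 75.9, with a log2 fold change of 0.25 ± 0.13 (edgeR adjusted p 0.488).

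Cfi (ENSMUSG00000058952.13) encodes factor I, the plasma protease that cleaves C3b and C4b. It stood at 494.5, 392 and 192 CPM in shSCR and 469, 772 and 828 in shZdhhc17, where replicate 1 lay within the control range. Its log2 fold change was 0.94 ± 0.38 (edgeR adjusted p 0.413). C4bp encodes the alpha chain of C4b-binding protein, a cofactor of factor I, and had a like pattern: 392, 314 and 152 CPM in shSCR, and 350.3, 586 and 626 in shZdhhc17 (log2 fold change 0.86 ± 0.37, edgeR adjusted p 0.440). Serping1 encodes the C1 inhibitor, which blocks C1r, C1s and the MASP proteases. It stood at 1000, 940 and 609 CPM in shSCR and 839, 1388 and 1474 in shZdhhc17, with a log2 fold change of 0.54 ± 0.30 (edgeR adjusted p 0.516).

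The 3 genes for C1q, the recognition molecule that macrophages make, had fitted values below 0. C1qa stood at 264, 318 and 398 CPM in shSCR and 285, 270 and 300.5 in shZdhhc17. C1qb stood at 169, 219.5 and 223 against 187, 194 and 212, and C1qc at 206, 275 and 325.5 against 217, 223.5 and 249. All 3 were lowest in shSCR replicate 1 and highest in shSCR replicate 3, with the silenced libraries between, so the groups overlapped. Log2 fold changes were -0.20 ± 0.19 for C1qa, -0.04 ± 0.16 for C1qb and -0.23 ± 0.19 for C1qc, with edgeR adjusted p of 0.703, 0.929 and 0.666. The 3 genes lie next to each other in RefSeq, in the order C1qb, C1qc, C1qa.

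The C1q sum was 640, 813 and 946 CPM in shSCR and 690, 687 and 761 in shZdhhc17, whereas 11 macrophage markers, led by Lyz2, summed to 992, 1043 and 1002 CPM in shSCR and 1266, 1319 and 1308 in shZdhhc17. Without Lyz2, which neutrophils also express, the macrophage sums were 580, 714 and 655 CPM against 656, 818 and 798, with overlap. The median log2 fold change of the 11 was 0.18, with 2 below 0. The 6 Kupffer cell markers, led by Cd5l and with 1 complement receptor gene among them, Vsig4, summed to 235, 337 and 103 CPM against 272, 504 and 481. The C1q sum rose from shSCR replicate 1 to replicate 3, as did that of the fibroblast markers described below (3938, 4554 and 6950 CPM). So did genes that interferon gamma induces, led by Cd74, at 1323, 4237 and 7136 CPM. The interferon gamma genes stood at 1008, 1966 and 2589 in shZdhhc17. The fitted log2 fold change was below 0 for 18 of these 18 genes, with a median of -1.26, where 50.3% of all genes were above 0. Fitted beside the hepatocyte marker level (the mean log2(CPM + 1) of the 14 markers), 7 of the 18 were above 0 and the median was -0.07. The part of these cells and of this response in the C1q levels was not tested.

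Downstream of C1q, the protease genes C1ra and C1s1 were higher on average in shZdhhc17 without passing the test. C1ra stood at 107, 106 and 79.4 CPM in shSCR and 85.8, 165.5 and 175.5 in shZdhhc17, and C1s1 at 236, 231 and 195 against 204.5, 354 and 390. In both genes the silenced replicate 1 lay below at least 1 control and the other 2 silenced libraries lay above every control. Their log2 fold changes were 0.55 ± 0.28 and 0.52 ± 0.25 (edgeR adjusted p 0.486 and 0.475). C4b, which encodes C4, the substrate of C1s, stood at 1106, 1240 and 682 CPM in shSCR and 1086, 2036 and 2123 in shZdhhc17, with a log2 fold change of 0.79 ± 0.35 (edgeR adjusted p 0.441). C2, the protease that joins C4b in the classical convertase, did not share that pattern: it stood at 26.5, 25.7 and 26.4 CPM in shSCR and 16.7, 28.2 and 28.8 in shZdhhc17 (log2 fold change -0.09 ± 0.21, edgeR adjusted p 0.883). The near-identical copies C1rb, C1s2 and C4a can share reads with C1ra, C1s1 and C4b, and 42.8% of the exon bases of C2 lie in the readthrough model that covers Cfb, so these levels are uncertain.

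Of the lectin pathway genes, the 2 mannose-binding lectins had fitted values of opposite sign, a difference that was not tested. Mbl1, for lectin A, stood at 134, 79.0 and 35.9 CPM in shSCR and 81.5, 137 and 145 in shZdhhc17. Mbl2 (ENSMUSG00000024863.7), for lectin C, stood at 249, 219.8 and 126 against 81.1, 216 and 209, so its lowest value of the 6 was in shZdhhc17 replicate 1. Log2 fold changes were 0.55 ± 0.45 for Mbl1 and -0.23 ± 0.40 for Mbl2 (edgeR adjusted p 0.649 and 0.843), and the groups of both overlapped. Leaving out shZdhhc17 replicate 1 turned the value of Mbl2 to 0.10. The ratio of Mbl1 to Mbl2 per kilobase was 0.372, 0.249 and 0.198 in shSCR and 0.696, 0.440 and 0.482 in shZdhhc17, without overlap. The protease genes Masp1 and Masp2, whose products bind these lectins, had log2 fold changes of 0.56 ± 0.26 and 0.49 ± 0.34 (edgeR adjusted p 0.457 and 0.594). Masp1 ranged from 87.9 to 129 CPM in shSCR and 113 to 206 in shZdhhc17, and Masp2 from 57.1 to 128 and 91.1 to 168.

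The membrane attack complex is built from C5 to C9. Among the 29, Hc, C8a, C8b, C8g and C9 are in the hepatocyte-made class, and C6 is in the class made by hepatocytes and other cells. Of its 6 genes among the 29, C8g was the 1 with a fitted value below 0. Hc, which encodes C5, stood at 585, 513 and 205 CPM in shSCR and 386, 993 and 869 in shZdhhc17 (log2 fold change 0.79 ± 0.47, edgeR adjusted p 0.537). C6, which binds C5b, stood at 13.8, 24.3 and 10.1 against 15.5, 32.6 and 38.2 (0.84 ± 0.41, edgeR adjusted p 0.483). C9, the pore-forming unit, stood at 238, 221 and 78.9 against 189, 348 and 357 (0.73 ± 0.43, edgeR adjusted p 0.533). In these 3 genes shSCR replicate 3 was lowest, and the silenced replicate 1 lay among the controls.

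The 3 chains of C8, whose promoter windows are printed above, did not keep 1 ratio. C8a (ENSMUSG00000035031.16) stood at 554, 386 and 160 CPM in shSCR and 460, 795 and 789 in shZdhhc17, and C8b (ENSMUSG00000029656.14) at 105, 67.9 and 24.6 against 72.5, 139 and 127. C8g (ENSMUSG00000015083.12) stood at 142, 76.0 and 40.3 against 52.1, 100.4 and 75.4. Log2 fold changes were 0.89 ± 0.44, 0.77 ± 0.49 and -0.18 ± 0.44, with edgeR adjusted p of 0.485, 0.558 and 0.890, and each gene's groups overlapped. Within a library, where scaling cancels, the ratio of C8a to C8b per kilobase was 3.68, 3.97 and 4.57 in shSCR and 4.45, 4.00 and 4.35 in shZdhhc17, which overlapped. The ratio of C8a to C8g was 1.60, 2.08 and 1.63 against 3.63, 3.25 and 4.29, or 1.77 ± 0.27 against 3.72 ± 0.53 (SD, n = 3 each). That of C8b to C8g was 0.434, 0.524 and 0.357 against 0.816, 0.812 and 0.987. Neither ratio to C8g overlapped between the groups. C8a and C8b are neighbours in RefSeq on chromosome 4, and C8g lies on chromosome 2.

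These ratios were read against all pairs: of the 406 ratios between 2 complement genes, 98 did not overlap between the groups (24.1%), with no test made. Ratios that were higher in shZdhhc17 without overlap were most frequent over 3 denominators: 19 of the 28 ratios of another complement gene to Mbl2 (67.9%), 17 of the 28 to C2 (60.7%) and 12 of the 28 to C8g (42.9%). The gene after these was Masp2, with 7 of 28. In the other direction, ratios lower in shZdhhc17 without overlap were most frequent over C3 (13 of 28), Cd55 (12), Cfi (11) and Cfb (10). The ratio of C3 to C4b was 6.06, 5.34 and 5.23 in shSCR and 6.71, 7.99 and 6.84 in shZdhhc17, also without overlap. Among the C1q chains, C1qc to C1qb per kilobase was 0.686, 0.705 and 0.823 in shSCR and 0.653, 0.650 and 0.662 in shZdhhc17. That ratio was lower without overlap, so C8 was not alone in this. The ratio of C1qa to C1qb overlapped. For the protease pair C1s1 and C1ra the ratio lay between 2.04 and 2.34 in the 6 libraries, with overlap.

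**Figure D2:**
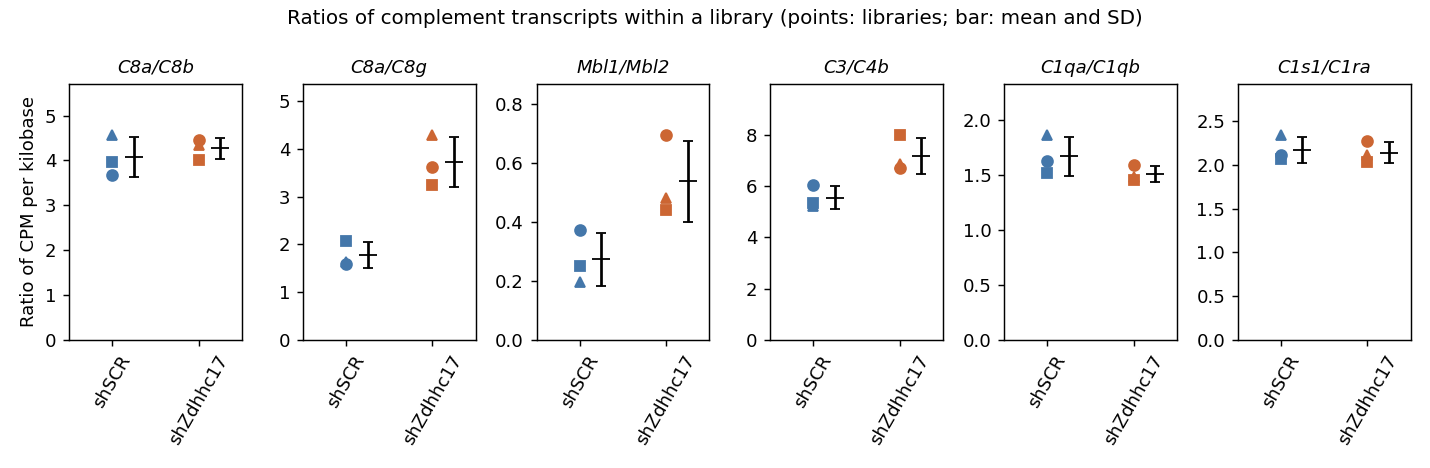
Ratios of CPM per kilobase between pairs of complement genes in each library, with circles, squares and triangles for replicates 1, 2 and 3 and bars for the mean and SD of 3 libraries. C8a to C8b overlapped between the groups, while C8a to C8g stood at 1.60 to 2.08 in shSCR and 3.25 to 4.29 in shZdhhc17.

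Vtn and Clu encode fluid-phase inhibitors of the attack complex, vitronectin and clusterin, and ranked just below C3 per length at 904 and 594 CPM per kilobase. Vtn stood at 1987, 1614 and 915 CPM in shSCR and 1685, 2611 and 2889 in shZdhhc17 (log2 fold change 0.67 ± 0.35, edgeR adjusted p 0.501). Clu, which many cell types make, stood at 2109, 1850 and 1527 against 2524, 2670 and 1974 (0.39 ± 0.25, edgeR adjusted p 0.560). The groups overlapped for both.

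Cd55 (ENSMUSG00000026399.13), from the cell-bound class, had the smallest p of the 29. It encodes decay-accelerating factor, a membrane protein that takes apart C3 convertases, and its level per length was low, at 2.68 CPM per kilobase. It stood at 11.9, 10.1 and 7.87 CPM in shSCR and 14.1, 19.5 and 24.0 in shZdhhc17, so each silenced library was above each control. Means were 9.98 ± 2.04 and 19.2 ± 4.96 (SD, n = 3 each), and the log2 fold change of 0.94 ± 0.24 was not called (edgeR adjusted p 0.307). DESeq2 gave Cd55 an adjusted p of 0.0515 and the authors' deposited table a q-value of 0.0550, both just above 0.05. Cd59a, which blocks the insertion of C9, stood at 24.3, 19.0 and 14.4 against 20.4, 28.7 and 27.6 (0.41 ± 0.22, edgeR adjusted p 0.512).

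The anaphylatoxin receptors, carried by myeloid cells among others, had fitted values close to 0. C3ar1, the C3a receptor, stood at 28.2, 38.6 and 41.1 CPM in shSCR and 30.8, 34.6 and 31.8 in shZdhhc17 (log2 fold change -0.15 ± 0.17, edgeR adjusted p 0.742). C5ar1, the C5a receptor of neutrophils and macrophages, stood at 15.9, 27.1 and 18.0 against 22.1, 18.4 and 20.8 (0.01 ± 0.22, edgeR adjusted p 0.993). The groups overlapped for both receptors. Neutrophil markers, 8 genes led by S100a9, summed to 140, 314 and 106 CPM in shSCR and 568, 383 and 751 in shZdhhc17, without overlap. Their part in the level of C5ar1 was not tested.

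By class, the 12 hepatocyte-made factors had 10 fitted values above 0 and a median log2 fold change of 0.70, and the 9 factors made by hepatocytes and other cells had 8 above 0 and a median of 0.55. The 3 C1q genes had none above 0 and a median of -0.20. For the 4 cell-bound receptors and regulators, 3 were above 0 and the median was 0.21. The median over all genes was 0.0017. The 14 hepatocyte markers had 12 above 0 and a median of 0.43. The hepatocyte-made factors summed to 5138, 4123 and 2074 CPM in shSCR and 4031, 7060 and 7273 in shZdhhc17. As with the hepatocyte markers, shSCR replicate 3 was lowest and the silenced replicates 2 and 3 were highest. The 12 acute phase genes, led by Fga, which hepatocytes also make, summed to 30748, 22528 and 11261 CPM against 27932, 38704 and 43388, with 12 of 12 fitted values above 0 and a median of 0.93. The 8 fibroblast markers, led by Col3a1, summed to 3938, 4554 and 6950 CPM against 3138, 3847 and 3794, but single markers went both ways, with 3 above 0, 5 below and a median of -0.17. The 6 mesothelial markers, led by Msln, summed to 60.4 to 105 CPM in shSCR and 81.5 to 140 in shZdhhc17, with 5 above 0 and a median of 2.34. Their mean log2(CPM + 1) was 2.90, 2.08 and 2.03 against 3.71, 3.35 and 4.22, without overlap. The part of the acute phase, fibroblast and mesothelial genes in these classes was not tested.

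**Figure D3:**
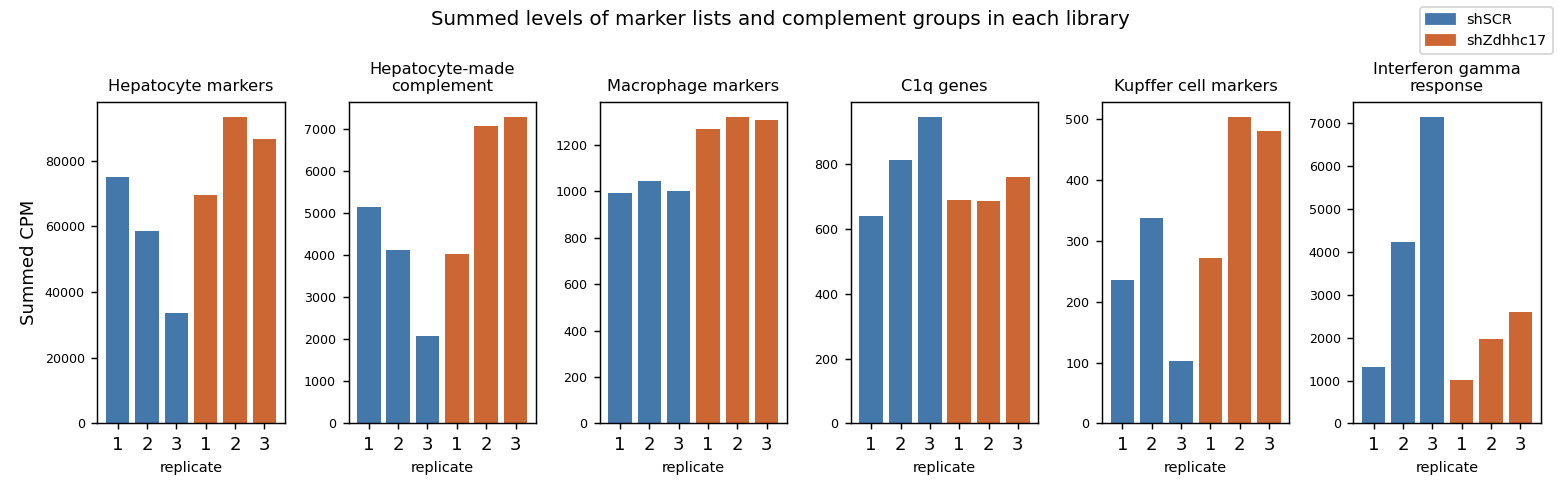
Summed CPM of marker lists and of complement classes in each library, numbered by replicate and coloured by group, with bars from 0. Hepatocyte markers and hepatocyte-made complement factors were both lowest in shSCR replicate 3 (33712 and 2074 CPM), while the C1q genes were highest there (946 CPM).

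For use as a covariate, the hepatocyte marker level was the mean log2(CPM + 1) of the 14 markers, not their sum. It was 11.6, 11.1 and 10.2 in shSCR and 11.1, 11.7 and 11.4 in shZdhhc17. With edgeR given this covariate, the median log2 fold change of the hepatocyte-made factors was 0.27, against 0.70 without it. That of the mixed class was 0.35, against 0.55. Fitted values were then above 0 for 23 of the 29 genes, beside 52.4% of all genes, and 5 had an unadjusted p under 0.05, beside 9.37% of all genes in either direction. Values for C3 (0.78 ± 0.30), Cfb (0.79 ± 0.33), Cfi (0.55 ± 0.21) and Cd55 (0.74 ± 0.22) kept their sign. C8g stood at -0.66 ± 0.15 and Mbl2 at -0.66 ± 0.32. C1qa was at -0.0043 and C1qb at 0.053. None of the 29 passed after adjustment, and C8g, the smallest p here, had an edgeR adjusted p of 0.315.

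**Figure D4:**
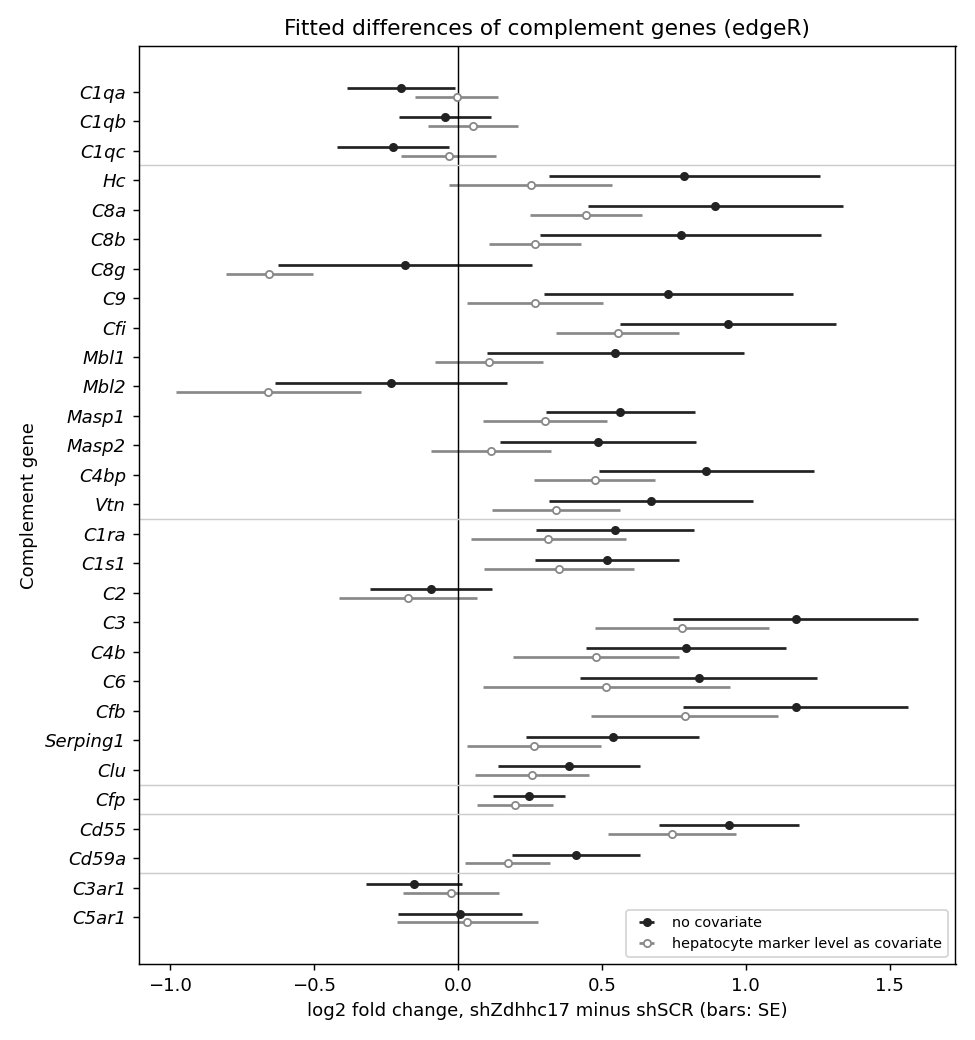
Fitted log2 fold changes of shZdhhc17 minus shSCR with their SE for each complement gene, without a covariate (filled) and with the hepatocyte marker level as covariate (open). Values for C3 were 1.17 and 0.78, and for C8g -0.18 and -0.66, so the open point of C8g lies further below 0.

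Each gene was also divided by the hepatocyte marker sum of its own library. Per 1000 CPM of those markers, Cfi stood at 6.59, 6.70 and 5.69 CPM in shSCR and 6.74, 8.27 and 9.55 in shZdhhc17, and it was the 1 complement gene of the 29 higher without overlap, as were 0.636% of all genes. C3 stood at 80.6, 102 and 95.6 against 94.6, 157.5 and 151, which overlapped through replicate 1. Lower without overlap were 4 of the 29, C8g, Mbl2, C2 and Cd59a, as were 23.5% of all genes. C8g stood at 1.90, 1.30 and 1.20 against 0.748, 1.08 and 0.870, and Mbl2 at 3.32, 3.76 and 3.73 against 1.17, 2.31 and 2.41. Vtn stood at 26.5, 27.6 and 27.1 against 24.2, 28.0 and 33.3 on this scale, with overlap.

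Of 31 further complement genes listed, 27 passed the filter on low counts: 21 had a fitted value above 0 and 6 below, with a median of 0.37, and none passed after adjustment in edgeR. At an unadjusted p under 0.05 stood 7 higher and 1 lower, beside 4.72% and 6.71% of all genes. Itgax, the alpha chain of complement receptor CR4 on dendritic cells and macrophages, was the gene on the lower side: 25.3, 49.2 and 69.1 CPM against 12.4, 23.7 and 18.3 (-1.40 ± 0.38, edgeR adjusted p 0.322), without overlap. DESeq2 called Itgax, and no other of the 27, at an adjusted p of 0.0289. The authors' deposited table gives it a q-value of 0.0256, and gives 0.0191 for Fcnb, a ficolin gene of neutrophils that was below the count filter here and is named after its value was seen; these were the 2 of 30 under 0.05, where that table calls 0.406% of all genes higher and 0.439% lower. C4a, the close copy of C4b, had a log2 fold change of 1.24 ± 0.44, the lectin gene Colec10 1.05 ± 0.38 and the ficolin gene Fcna 1.07 ± 0.40, with edgeR adjusted p of 0.392, 0.403 and 0.405. Cr1l, which encodes the rodent C3 regulator Crry, had 0.36 ± 0.13 (edgeR adjusted p 0.394). Cd46 had -0.24 ± 0.25, C7 0.73 ± 0.54 and Vsig4, the Kupffer cell receptor for C3b, 0.90 ± 0.48, with edgeR adjusted p of 0.719, 0.609 and 0.502.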

How the data were processed

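The authors deposited raw counts per gene for the 6 libraries, and a table of log2 fold changes with p-values and q-values. FastQC 0.11.8, STAR 2.6.1, HTSeq, DESeq2 1.34.0 and GRCm39 are named, per the submitters' processing notes, without their roles; the strand setting and the treatment of reads shared between genes are not given in the sources used here. Each of the 6 count columns was matched to a sample, and 0 were left unmatched.

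Counts were tested across all genes with edgeR 4.0.16 (glmQLFTest with robust estimation, two-sided, TMM, filterByExpr; R 4.3.3), adjusted by Benjamini-Hochberg, with a threshold of 0.05. Standard errors come from the fold change and its F statistic. CPM uses TMM library sizes. DESeq2 1.42.0 and limma 3.58.1 (voom) were alternatives. On simulated counts for shZdhhc17 minus shSCR (15389 genes tested), edgeR found 48% of the 2-fold and 85% of the 4-fold differences built in, with 10 false calls. The changed genes were drawn at random from all tested genes, and each gene varied independently. These rates are therefore not those of the complement genes. Lengths are unions of exons in GENCODE M21 (GRCm38). A planned comparison of classes within a library was not tested, since no p is given for a score over the genes.

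The genes, classes and marker lists were chosen with earlier results of these data known. All listed genes are named, and of the further complement genes the 6 with the smallest p plus some of the best known, Cr1l, Cd46, C7 and Vsig4 among them; 1 gene so chosen is not reported here. The most expressed gene of each marker list is named. Total counts ran from 15832837 to 19186615 per library, and Cfb rests on 29 to 117 counts.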

Additional observations from a re-analysis of the deposited data

How the results depend on the processing

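None of the 29 complement genes passed after adjustment under any setting tried. Over all genes, 3 passed with no filter on low counts, 3 with the hepatocyte covariate, 210 with DESeq2, 1 without shSCR replicate 3 and shZdhhc17 replicate 1 (a setting chosen after seeing the data), and 0 to 1 without single libraries. Complement genes at an unadjusted p under 0.05 numbered 8 with no filter, 11 with DESeq2, 17 without both libraries, 1 to 12 without single libraries and 1 with the replicate number as a block. The labels do not state that equal replicate numbers pair the samples. Same-numbered deviations correlated at -0.03, 0.25 and -0.03. Differently numbered ones ran from -0.35 to 0.26, so these values cannot decide on a pairing. Signs turned for C5ar1 with library totals alone (-0.13, where the median of all genes was also -0.13) and C1qb with the covariate (0.053). Without both libraries C1qb was at 0.042, C2 at 0.11 and C5ar1 at -0.15. Without single libraries C1qb ran from -0.16 to 0.02, C8g from -0.53 to 0.39, C5ar1 from -0.14 to 0.27, Mbl2 from -0.48 to 0.10 and C2 from -0.22 to 0.13. The other fitted values kept their sign (420 of 435). Class medians kept theirs: -0.34 to -0.0043 for C1q, 0.27 to 1.03 for hepatocyte-made, 0.35 to 0.81 for the mixed and 0.08 to 0.34 for the cell-bound class. The causes were not tested. Counts for Cfb were low, at 29 to 117 per library.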
